A study of Arabidopsis thaliana with 21 samples.

Results

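In this comparison 3 arrays of cold acclimated plants (CA) were set against 3 arrays of non-acclimated plants (NA), 6 of the 21 arrays of an Arabidopsis thaliana series on cold acclimation and deacclimation, and the genes were all probe sets with a single gene name. The plants were of the accession Col-0. They were raised for 3 weeks under days of 8 h and for 1 week under days of 16 h, in a greenhouse with 20 °C days, 18 °C nights and at least 200 µmol of light per square metre and second. NA plants came straight from there, while CA plants then spent 3 d at 4 °C in light of 90 µmol. Each array held RNA of 1 biological replicate pooled from 10 plants. The other 15 arrays were from plants returned to the greenhouse for 2, 4, 6, 12 or 24 h after the cold. Cold and dimmer light came together, and the paper has sampling by day but gives no clock hour for NA or CA plants. CA plants entered the cold after the 3 and 1 weeks of growth, and whether NA plants were of equal age at harvest is stated neither by the labels nor by the paper, so the effects of cold, light, hour and age cannot be told apart in these 6 arrays.

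Cold acclimation is the gain in freezing tolerance that many plants of temperate climates make during days at low but non-freezing temperature. In Arabidopsis the CBF transcription factors, which are themselves induced within hours of chilling, switch on COR genes for hydrophilic proteins that protect membranes and enzymes when cells lose water to ice. Soluble sugars, proline and flavonoids accumulate alongside, growth slows and the circadian clock dampens. The comparison of CA with NA plants asks which transcripts differ once this state has been reached.

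Values are the deposited log2 signals after RMA, and every change is the CA mean minus the NA mean on the log2 scale, so that 1 is a doubling. It is given with the standard error (SE) of a limma fit over all 21 arrays and a p-value adjusted by Benjamini-Hochberg over all 31329 analysed probe sets. A probe set was called higher or lower at an adjusted p under 0.05 and a change over 1 in size. Of the 31329 probe sets, 1139 (3.64%) were higher and 1335 (4.26%) were lower in the cold. Of the 16505 genes named in the platform table, represented by 1 probe set each, 592 (3.59%) were higher and 749 (4.54%) were lower. These shares are the background for each gene list described here. The lists were chosen with earlier results of these data known. A list count set against the background is thus a description and not a test. A stricter limma test, against the 2-fold threshold itself (treat), called 162 probe sets higher and 186 lower, and under it 56 of the 98 calls among the genes named by rule were lost. At the adjusted p alone, with no fold threshold, 14.1% of these genes were higher and 13.4% lower. The 3 CA arrays all lay above the 3 NA arrays for 22.0% of these genes and all below for 21.4%. A further 637 genes were named only from the paper's table of called transcripts. Since that table holds transcripts called in at least 1 comparison, 136 higher and 160 lower among them are not to be read against the background.

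Decreases of over 2 on the log2 scale outnumbered increases of that size, but the largest changes did not lean that way. Among the genes of the platform table, 165 were lower and 72 higher by over 2, 36 were lower and 28 higher by over 3, and 3 were lower and 5 higher by over 4. The median change of the called genes was -1.43 for the lower and 1.29 for the higher ones. Calls were spread over the chromosomes, with 3.4% to 3.81% of the genes of chromosomes 1 to 5 higher and 4.17% to 5.08% lower. They were rare at low signal: of the 4127 genes with the lowest signal over the 6 arrays (up to 4.37) 10 were higher and 18 lower, against 261 and 300 of the 4126 genes with a signal of 7.46 to 9.59.

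**Figure D1:**
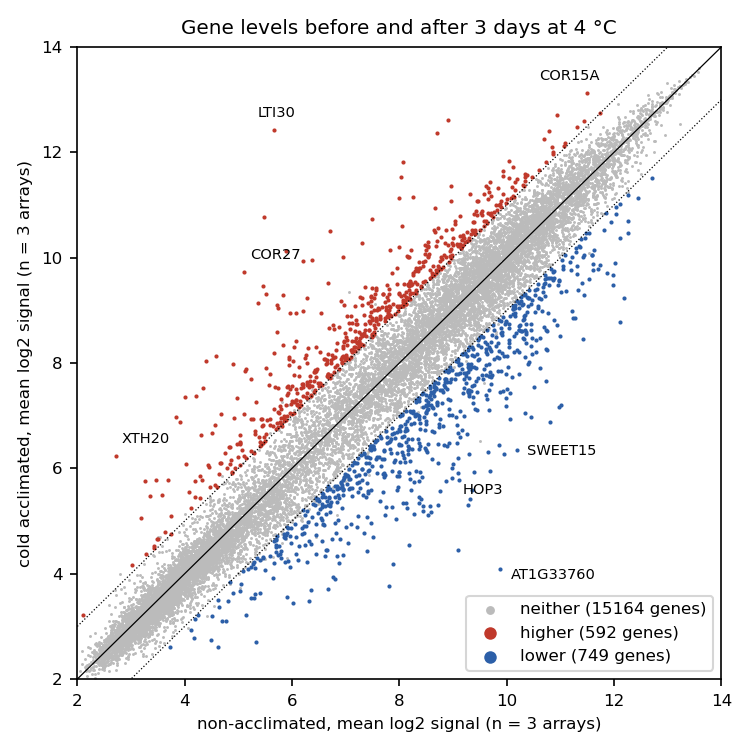
Mean log2 signal of the 3 CA arrays (vertical axis) against that of the 3 NA arrays (horizontal axis) for the 16505 genes named in the platform table, 1 point each, with dotted lines at a change of 1 either way. The 592 higher genes lie above the upper dotted line and the 749 lower genes below the lower one, with LTI30 and AT1G33760 farthest out.

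The arrays of each group were alike. The lowest correlation between arrays over the analysed probe sets was 0.993 within CA and 0.988 within NA, and array medians lay between 8.11 and 8.19. NA arrays varied more: the median SD was 0.183 in NA and 0.139 in CA over all genes of the platform table, and 0.322 in NA and 0.206 in CA over the lower genes. In NA plants 57 of the 749 lower genes had an SD over 0.8, and in 45 of these 57 NA replicate 1 was the lowest of the 3 arrays. Of the tissue markers, rubisco activase (RCA), a leaf gene, stood at 12.29 to 12.38 in CA and 12.56 to 12.60 in NA. LHCB1.1, another leaf marker, went the other way, at 11.07 to 11.13 in CA and 9.58 to 9.82 in NA. The root hair expansins EXPA7 and EXPA18 lay between 3.66 and 5.15 on all 6 arrays. Signals of different probe sets are not on a common scale. No floral organ marker was among the genes named.

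The largest increase was that of LTI30, a dehydrin, one of the hydrophilic proteins that accumulate in drying or freezing cells. Its signal was 12.54, 12.27 and 12.45 in the CA arrays and 5.84, 5.42 and 5.73 in the NA arrays. The groups lay far apart and the change was 6.76 ± 0.47 (SE, n = 3 arrays per group), the largest of any named gene (adjusted p = 5.29e-08). AT4G01985, for which no annotation was at hand, followed with a change of 5.28 ± 0.48 (adjusted p = 8.13e-07), at 11.03, 10.25 and 11.02 in the CA arrays and 5.68, 5.50 and 5.27 in the NA arrays.

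The next 2 genes named here are known for roles in cold-grown leaves. GOLS3 encodes galactinol synthase, the first enzyme of raffinose synthesis, and its signal was 11.39, 10.59 and 11.15 in the CA arrays and 6.65, 6.09 and 5.58 in the NA arrays. All CA arrays lay far above all NA arrays, and the change was 4.94 ± 0.29 (adjusted p = 1.09e-08). COR27, a cold-induced regulator of the circadian clock, was at 9.81, 9.46 and 9.91 in the CA arrays and 5.24, 4.64 and 5.46 in the NA arrays, with a change of 4.61 ± 0.31 (adjusted p = 3.3e-08).

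The remaining 11 of the 15 largest increases ranged from 3.58 to 4.23. Among them AT1G17665 rose from 6.21, 5.64 and 5.83 in the NA arrays to 10.25, 9.92 and 10.21 in the CA arrays. It is annotated as similar to a Brassica protein called CA-responsive, where CA need not mean cold acclimated. AT1G56300, with the DNAJ domain of co-chaperones, rose by 3.73 ± 0.31 and AT1G02460, of the polygalacturonase family that cuts pectin, by 3.79 ± 0.52. For the latter the NA arrays were widely spread, at 6.75, 5.74 and 4.07, yet all lay below the CA arrays at 9.52, 9.32 and 9.09. COR28, COR15B and KIN1 also stood among these 15, besides AT1G08890, AT2G39920, AT1G16850, AT4G30650 and AT1G04570, whose changes lay between 3.58 and 3.80 and for which no function was at hand.

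Genes of cold-protective proteins were higher. Of 28 listed COR, LEA and related genes, 7 were named in the platform table, and 6 of these 7 were higher and none lower, against 3.59% of all genes. Under treat 3 were higher. Their median change was 1.63, against -0.03 over all 16505 genes. COR15A and COR15B encode chloroplast proteins that stabilise membranes during freezing, and they lie next to each other on the chromosome. COR15B was at 12.56, 12.57 and 12.74 in the CA arrays and 9.17, 8.96 and 8.62 in the NA arrays, a change of 3.71 ± 0.23, whereas COR15A was at 13.05, 12.99 and 13.35 in the CA arrays and 11.61, 11.50 and 11.38 in the NA arrays, a change of 1.63 ± 0.18. Both rose in every array, and the difference between the 2 changes was not tested.

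The neighbouring pair KIN1 and KIN2, small hydrophilic cold-induced proteins, was higher too. KIN1 was at 8.44, 7.65 and 7.99 in the CA arrays and 4.45, 3.67 and 5.05 in the NA arrays, a change of 3.64 ± 0.39. KIN2 was at 12.25, 12.19 and 12.30 in the CA arrays and 10.90, 10.53 and 10.63 in the NA arrays, a change of 1.56 ± 0.22. Because the members of both pairs are close copies, signal may be shared between their probes. KIN2 and COR47 stand outside the rule by which genes were named and were chosen after their values were seen. COR47, another dehydrin, changed by 1.25 ± 0.22, at 12.10, 12.13 and 12.06 in the CA arrays and 11.05, 10.91 and 10.61 in the NA arrays. The seventh measured member, AT3G17520, did not pass the test, at 4.57, 4.02 and 4.13 in the CA arrays and 4.61, 4.18 and 4.51 in the NA arrays (change -0.19 ± 0.27, adjusted p = 0.672).

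The 2 members named only from the paper's table were higher as well. COR413IM1, a protein of the inner chloroplast membrane, was at 12.82, 12.50 and 12.62 in the CA arrays and 9.16, 9.43 and 9.03 in the NA arrays, a change of 3.44 ± 0.21. GRP7, a glycine-rich RNA-binding protein under circadian control, was at 12.02, 12.10 and 12.25 in the CA arrays and 9.09, 9.01 and 9.13 in the NA arrays, a change of 3.05 ± 0.11 (adjusted p = 1.07e-10). The arrays of each group lay close together, and the adjusted p was the smallest of the named genes. Of 17 listed regulators of the CBF pathway only ZAT10, a zinc finger repressor induced by many stresses, was measured under a name, and it was lower, at 8.05, 8.27 and 8.29 in the CA arrays and 10.95, 9.35 and 10.40 in the NA arrays, a change of -2.03 ± 0.60 (adjusted p = 0.0166). This call was lost without NA replicate 1 (adjusted p = 0.0743), without NA replicate 3 (0.0526) and without CA replicate 1 (0.0508). The CBF genes themselves were not analysed here.

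**Figure D2:**
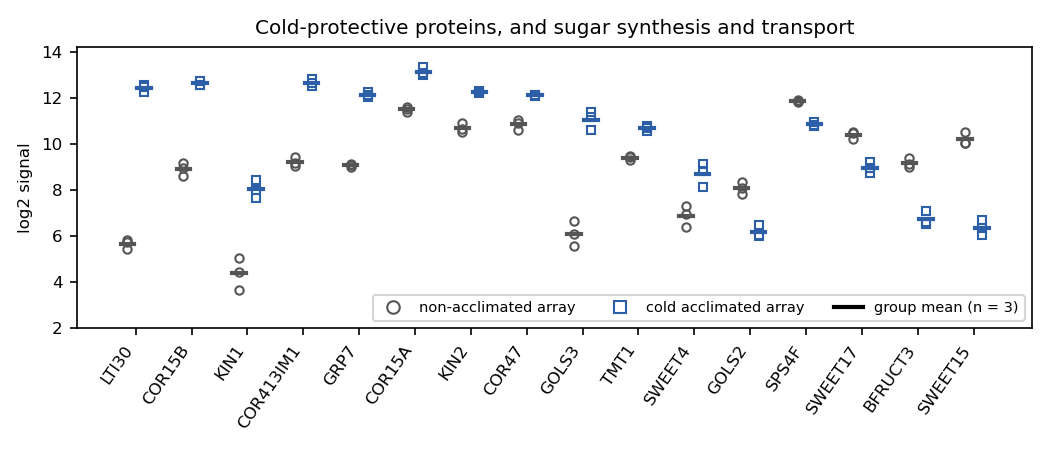
Log2 signal of each array for 8 cold-protective genes (LTI30 to COR47) and 8 genes of sugar synthesis and transport (GOLS3 to SWEET15), with circles for NA arrays, squares for CA arrays and bars for the mean of 3. Only called genes are drawn, and uncalled members such as AT3G17520 and SWEET11, whose arrays overlap, are left out. In the 16 genes drawn the 2 groups are free of overlap, from LTI30 with a change of 6.76 to SWEET15 with one of -3.83.

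Genes of sugar synthesis and transport moved in both directions. Of 9 members named in the platform table, 2 were higher (background 3.59%) and 4 lower (background 4.54%), with a median of -0.90. Under treat none was higher and 2 were lower. TMT1 carries hexoses into the vacuole, and it was at 10.57, 10.75 and 10.70 in the CA arrays and 9.31, 9.43 and 9.46 in the NA arrays, a change of 1.28 ± 0.12. The sugar carrier SWEET4 was higher by 1.80 ± 0.30. The lower members included the sugar carriers SWEET15 and SWEET17. SWEET15, whose transcript is known to rise in senescing leaves, was at 6.05, 6.68 and 6.34 in the CA arrays and 10.02, 10.49 and 10.05 in the NA arrays, a change of -3.83 ± 0.30 (adjusted p = 1.88e-07). SWEET17, a fructose carrier of the vacuolar membrane, was at 8.74, 9.21 and 8.93 in the CA arrays and 10.46, 10.19 and 10.51 in the NA arrays, a change of -1.43 ± 0.21.

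The vacuolar invertase BFRUCT3, which splits sucrose, was lower in every CA array, at 6.51, 7.09 and 6.60 in the CA arrays and 8.99, 9.14 and 9.39 in the NA arrays, a change of -2.44 ± 0.17 (adjusted p = 5.81e-08). SPS4F, a sucrose-phosphate synthase, was lower by just over the threshold, at -1.01 ± 0.20, and fell short of it without NA replicate 2 (-0.99), CA replicate 1 (-0.99) or CA replicate 3 (-0.98), and with arrays centred on their median (-0.98). The 2 galactinol synthases measured went opposite ways. Against the rise of GOLS3, GOLS2 was at 6.46, 6.00 and 6.05 in the CA arrays and 8.08, 7.81 and 8.33 in the NA arrays, a change of -1.90 ± 0.26 (adjusted p = 5.18e-05). ERDL6, a glucose exporter of the vacuole, changed by -0.77 ± 0.14, short of the fold threshold, and SWEET11, which loads sucrose for the phloem, by 0.28 ± 0.36 (adjusted p = 0.634).

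The starch genes that were called were higher. Of 6 starch genes in the platform table, 2 were higher (background 3.59%) and none lower (background 4.54%), with a median of 0.89. Under treat none was called. DPE1, the chloroplast disproportionating enzyme, was at 10.84, 10.89 and 10.71 in the CA arrays and 9.64, 9.42 and 9.27 in the NA arrays, a change of 1.37 ± 0.13. PWD, which phosphorylates starch so that amylases can attack it, was at 11.88, 12.13 and 12.00 in the CA arrays and 10.93, 10.97 and 10.70 in the NA arrays, a change of 1.14 ± 0.11. Of 6 members named from the paper's table, 5 were higher, among them DPE2 (change 1.73 ± 0.16), which uses maltose in the cytosol, GWD1 (1.34 ± 0.16), which also phosphorylates starch, the amylase AMY3 (1.35 ± 0.09) and the branching enzyme SBE2.1 (1.34 ± 0.14). The second branching enzyme, SBE2.2, changed by -0.24 ± 0.08 (adjusted p = 0.0285), past the adjusted p but short of the fold threshold, with all CA arrays (12.04 to 12.11) just below all NA arrays (12.28 to 12.34). GBSS1, the granule-bound starch synthase, changed by -0.67 ± 0.37 (adjusted p = 0.2). All its CA arrays (12.11 to 12.26) lay below all its NA arrays (12.83 to 12.92), so the missed test does not show equal levels. The one measured member of the list of proline metabolism, AT5G38710, was lower, at 5.82, 4.47 and 5.52 in the CA arrays and 7.73, 7.72 and 8.12 in the NA arrays, a change of -2.59 ± 0.27. From this single gene no direction of proline synthesis or breakdown can be read. ADS1, a desaturase and the one measured member of that list, changed by -0.08 ± 0.49 (adjusted p = 0.932).

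Flavonoid and anthocyanin genes were higher. Of 10 members in the platform table, 6 were higher and none lower, against 3.59% and 4.54% of all genes, and all 10 changes were positive, with a median of 1.1. Under treat none of them was called. DFR, dihydroflavonol reductase, opens the branch to anthocyanins and was at 11.67, 11.62 and 11.65 in the CA arrays and 10.68, 9.59 and 9.53 in the NA arrays, a change of 1.71 ± 0.55 (adjusted p = 0.0277). The 3 CA arrays nearly coincided, but NA replicate 1 was over 1 above the other NA arrays, and the call was lost without NA replicate 2 (adjusted p = 0.0912) or 3 (0.0998), or without CA replicate 1 (0.0665), 2 (0.0638) or 3 (0.0666).

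Genes for enzymes that decorate flavonoids were also called. UGT79B1, an anthocyanin xylosyltransferase, was at 6.78, 7.03 and 7.28 in the CA arrays and 5.14, 4.82 and 4.1 in the NA arrays, a change of 2.35 ± 0.45. The malonyltransferase 5MAT changed by 1.90 ± 0.30 and the flavonol arabinosyltransferase UGT78D3 by 1.79 ± 0.32, and AT1G03940, of the same list, by 1.15 ± 0.24, while UGT78D1, a rhamnosyltransferase of the same family, changed by 0.26 ± 0.17 (adjusted p = 0.296) and CHIL, a helper of chalcone synthesis, by 0.08 ± 0.19 (adjusted p = 0.82). Among those named from the paper's table, MYBL2, a repressor of anthocyanin synthesis, was higher, at 9.55, 9.54 and 9.59 in the CA arrays and 8.73, 7.37 and 8.23 in the NA arrays, a change of 1.45 ± 0.27. 4CL1, an entry enzyme of the phenylpropanoid pathway that also feeds lignin, was lower, at 9.67, 9.41 and 9.42 in the CA arrays and 10.87, 11.02 and 10.69 in the NA arrays, a change of -1.36 ± 0.14.

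Clock genes differed most through the COR27 and COR28 pair. COR28 was at 9.45, 9.21 and 9.73 in the CA arrays and 5.54, 5.01 and 5.84 in the NA arrays, a change of 4.00 ± 0.36 (adjusted p = 6.67e-07), close to the change of COR27. Of the 5 clock genes in the platform table these 2 were higher (background 3.59%) and none lower (background 4.54%), with a median of 0.89. GIGANTEA (GI), an evening gene likewise chosen after its values were seen, changed by 0.89 ± 0.19 with an adjusted p of 0.00243, short of the fold threshold, at 9.89, 9.79 and 10.02 in the CA arrays and 9.03, 9.24 and 8.77 in the NA arrays. Among those named from the paper's table, ELF3, part of the evening complex that represses growth genes, was at 9.44, 9.44 and 9.56 in the CA arrays and 7.53, 7.29 and 6.98 in the NA arrays, a change of 2.21 ± 0.14. FKF1, a blue light receptor of the flowering pathway, changed by 1.32 ± 0.29, at signals of 4.33 to 4.82 in CA and 3.06 to 3.38 in NA. These NA signals lay within the range of the 4127 dimmest genes (up to 4.37), so the size of the change is uncertain.

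The morning genes did not pass the test. CCA1 was at 12.12, 12.10 and 12.17 in the CA arrays and 12.09, 12.00 and 12.13 in the NA arrays, a change of 0.06 ± 0.28 (adjusted p = 0.912), and its partner LHY at 11.43, 11.46 and 11.49 in the CA arrays and 11.89, 11.95 and 11.91 in the NA arrays, a change of -0.46 ± 0.20 (adjusted p = 0.104). All CA arrays of LHY lay below all its NA arrays, with SDs of 0.030 in CA and 0.028 in NA. For LHY the missed test thus does not show equal levels. PRR9, a day-phase repressor of CCA1, changed by 0.99 ± 0.34, just short of the fold threshold. AT5G52660, of the clock list, changed by 0.20 ± 0.12, and EPR1 (RVE7), a relative of CCA1, by -0.03 ± 0.23 (adjusted p = 0.945). Since no clock hour is given for the harvest, the part of time of day in these values was not tested.

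Regulators that link light to growth moved unevenly. AT2G47890, a B-box zinc finger protein, was at 10.18, 10.27 and 10.36 in the CA arrays and 7.51, 7.50 and 6.90 in the NA arrays, a change of 2.97 ± 0.20 (adjusted p = 3.56e-08), while BBX18 and BBX16, at signals over 12 in both groups, changed by 0.45 ± 0.32 and 0.27 ± 0.21. BBX27 sat on the threshold at -1.0 ± 0.31 and lost its call without NA replicate 1 (adjusted p = 0.0898) or 3 (0.0751), or CA replicate 2 (0.0677) or 3 (0.102), in a fit of the 6 CA and NA arrays alone (0.0518), and with arrays centred on their median (a change of -0.97). PIF4, a transcription factor that promotes elongation in the warm, was lower, at 8.79, 8.82 and 9.03 in the CA arrays and 10.45, 10.76 and 10.97 in the NA arrays, a change of -1.85 ± 0.18 (adjusted p = 1.35e-06). PIF7 changed by -0.19 ± 0.23 and PIF1 by -0.48 ± 0.22 and neither passed the test (adjusted p = 0.624 and adjusted p = 0.116).

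Genes of ribosome biogenesis had small positive changes. Only 1 of the 15 members in the platform table was called higher (background 3.59%) and none lower, but all 15 changes were positive, with a median of 0.58, and 13 had an adjusted p under 0.05, against 14.1% of all genes with an adjusted p under 0.05 and a positive change. The called member, AT1G52930, has the brix domain of ribosome assembly factors and was at 11.28, 11.16 and 11.18 in the CA arrays and 9.99, 9.90 and 9.88 in the NA arrays, a change of 1.28 ± 0.10. The count was 2 without CA replicate 1 or 3 or with arrays centred on their median, and under treat none was called. AT5G27120, of the same list, changed by 0.97 ± 0.14 and PRH75, an RNA helicase of the nucleolus, by 0.46 ± 0.11. Of 10 members named from the paper's table, 5 were higher. LSG1-1, a GTPase of the large ribosomal subunit, was at 8.53, 8.64 and 8.62 in the CA arrays and 6.20, 6.52 and 6.22 in the NA arrays, a change of 2.28 ± 0.12 (adjusted p = 3.41e-09), and PWP2, NAF1, the nucleolin NUC1 and the helicase SWA3 changed by 1.51, 1.15, 1.09 and 1.08.

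Photosynthetic genes were called in both directions. Of 5 members of the rosette list in the platform table none was higher (background 3.59%) and 1 was lower (background 4.54%). That gene, LHCB4.3, encodes a minor antenna protein of photosystem II and was at 6.79, 6.42 and 7.01 in the CA arrays and 8.62, 8.10 and 8.45 in the NA arrays, a change of -1.65 ± 0.25. LHCB1.5, a main antenna protein, changed by -0.02 ± 0.10 (adjusted p = 0.923) and RCA changed by -0.25 ± 0.07. The main antenna genes LHCB1.4 and LHCB1.1, named from the paper's table, were higher, by 1.75 ± 0.21 and 1.42 ± 0.21, but LHCB1 genes are near-identical copies and their probes may share signal. None of the 63 chloroplast-encoded genes was called in limma (an unadjusted p under 0.05 was reached by 3 and an adjusted one by 2), and their changes ran from -0.09 to 0.42 with a median of 0.02. Their NA signals ranged from 9.15 to 13.58 and were over 12 for 59, as for 405 of all 16505 genes, and their highest CA mean, 13.61, was also the highest group mean of any gene of the platform table. Most thus lay near the top of the signal range, and the lack of calls does not show that their levels were equal.

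Among antioxidant enzymes, CAT1, a catalase, and CSD1, the cytosolic superoxide dismutase, were higher by 1.32 ± 0.14 and 1.16 ± 0.17. Both were named from the paper's table. The 2 chloroplast ascorbate peroxidases of the platform table, which remove peroxide made in photosynthesis, parted. SAPX, of the stroma, was at 11.86, 11.97 and 11.91 in the CA arrays and 11.17, 11.21 and 11.28 in the NA arrays, a change of 0.69 ± 0.09, and TAPX, of the thylakoid, at 11.45, 11.31 and 11.25 in the CA arrays and 11.93, 11.87 and 11.88 in the NA arrays, a change of -0.56 ± 0.11, each free of overlap and past the adjusted p but short of the fold threshold.

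**Figure D3:**
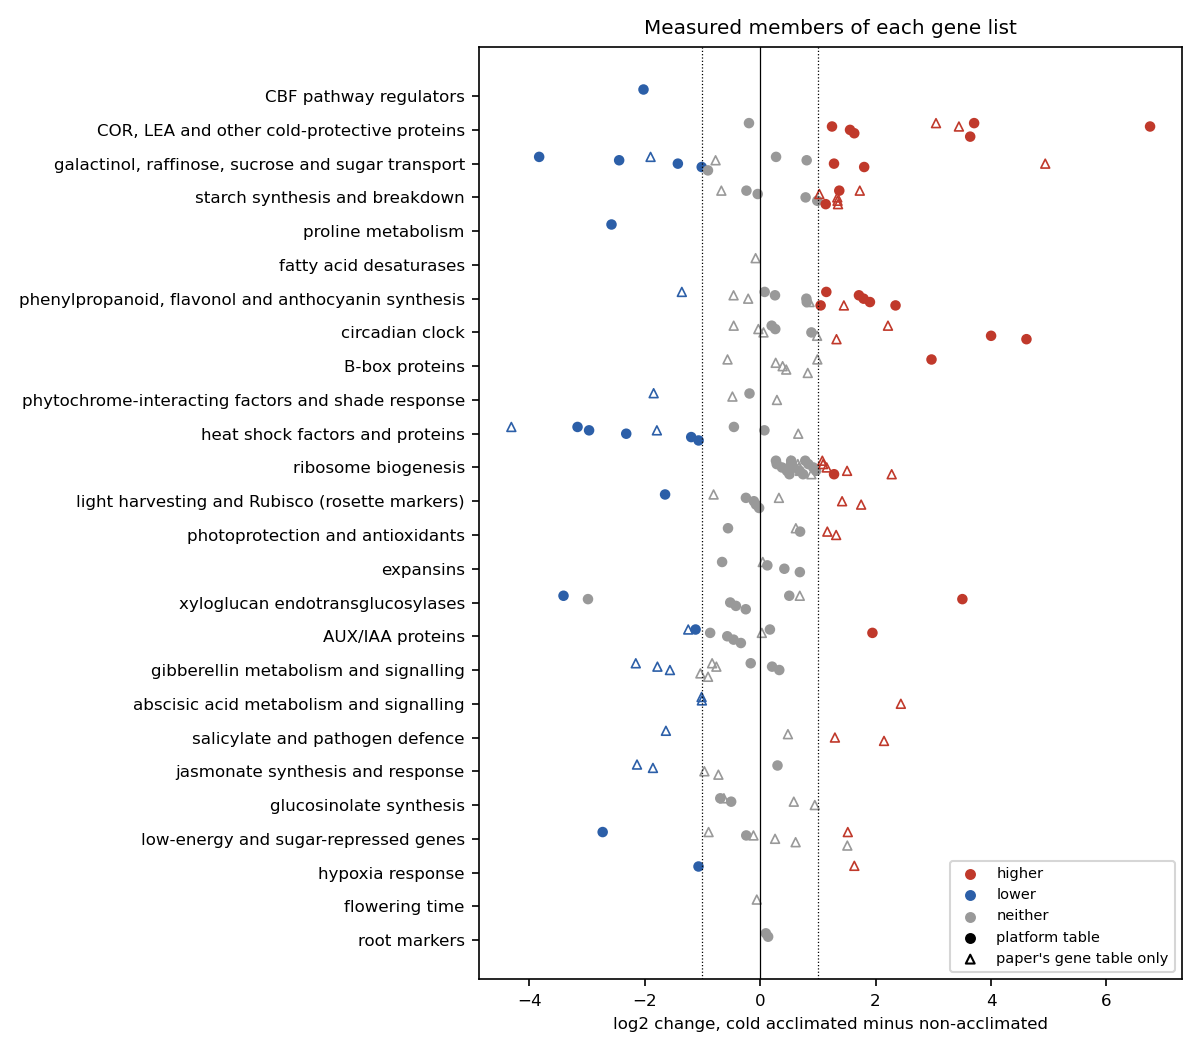
Log2 change (CA minus NA, horizontal axis) of every measured member of each gene list, filled circles for genes of the platform table and open triangles for genes named only in the paper's table, coloured by call. Most cold-protective and flavonoid members lie to the right, with 6 of 7 and 6 of 10 platform genes higher, most heat shock members to the left, with 5 of 7 lower, and the ribosome biogenesis members all right of 0, from 0.27 to 2.28.

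Heat shock genes were lower. Of 7 members in the platform table, 5 were lower and none higher, against 4.54% of all genes, with a median of -1.19, and under treat 1 was lower. HOP3, a co-chaperone that bridges HSP70 and HSP90, was at 5.76, 6.38 and 5.31 in the CA arrays and 8.66, 9.36 and 8.92 in the NA arrays, a change of -3.16 ± 0.45 (adjusted p = 6.04e-05). ROF2, an immunophilin that binds HSP90, was at 7.50, 7.24 and 7.18 in the CA arrays and 9.68, 9.70 and 9.51 in the NA arrays, a change of -2.32 ± 0.36. The small heat shock protein HSP17.6B changed by -1.19 ± 0.19 and AT5G51440, of the same list, by -2.96 ± 0.65.

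The heat shock factor HSFA2, named from the paper's table, had one of the largest decreases. It drives many heat shock genes and was at 3.58, 3.61 and 4.23 in the CA arrays and 8.43, 8.04 and 7.88 in the NA arrays, a change of -4.31 ± 0.62 (adjusted p = 7.56e-05). Its CA signals lay within the range of the 4127 dimmest genes (up to 4.37), so the size of this change and its rank are uncertain. HSP101, a chaperone that dissolves protein aggregates, was at 7.87, 7.69 and 7.65 in the CA arrays and 9.31, 9.69 and 9.58 in the NA arrays, a change of -1.79 ± 0.27. The list was not uniform, since the co-chaperone gene BAG6 had a positive change of 0.66 ± 0.21, and AT1G53540 changed by -0.45 ± 0.28 (adjusted p = 0.261) with NA arrays spread from 5.04 to 6.45. NA plants stood at 20 °C and brighter light, and the parts of warmth and light in these values were not tested.

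The largest decrease was that of AT1G33760, annotated as a transcription factor with an AP2 domain, the domain that CBF proteins also carry. It was at 4.23, 3.81 and 4.25 in the CA arrays and 8.84, 9.90 and 10.91 in the NA arrays, a change of -5.79 ± 1.04 (adjusted p = 0.000495). The CA arrays were close together and the NA arrays were widely spread, from 8.84 to 10.91. The CA signals lay within the range of the 4127 dimmest genes (up to 4.37), so the size of this change and its rank are uncertain. AT2G14247 and AT3G59250, with no function at hand, fell by 4.64 and 4.05. The CA mean of AT3G59250, 3.76, also lay within that dim range, so the size of its change is uncertain too. CYP71A13, a P450 of the synthesis of the defence compound camalexin, was at 7.09, 6.30 and 6.84 in the CA arrays and 10.50, 11.03 and 10.01 in the NA arrays, a change of -3.77 ± 0.38.

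ZAT7, a zinc finger gene like ZAT10, was at 6.89, 5.77 and 6.18 in the CA arrays and 9.24, 10.03 and 10.55 in the NA arrays, a change of -3.66 ± 0.60. CSLA01, of the cellulose synthase-like family, was at 5.05, 4.84 and 6.39 in the CA arrays and 8.24, 9.75 and 9.97 in the NA arrays, a change of -3.90 ± 0.76. The other members of the 15 largest decreases, besides SWEET15 and HSFA2, were AT5G05250, AT1G13609, AT1G72240, AT2G32200, AT4G33420, AT3G28270 and AT2G01300, with changes from -3.97 to -3.69 and no overlap of arrays. The CA mean of AT2G01300, 4.19, lay within the range of the dimmest genes (up to 4.37), so the size of its change is uncertain. AT1G13609 was at 7.07, 6.38 and 7.20 in the CA arrays and 11.24, 11.07 and 10.10 in the NA arrays.

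**Figure D4:**
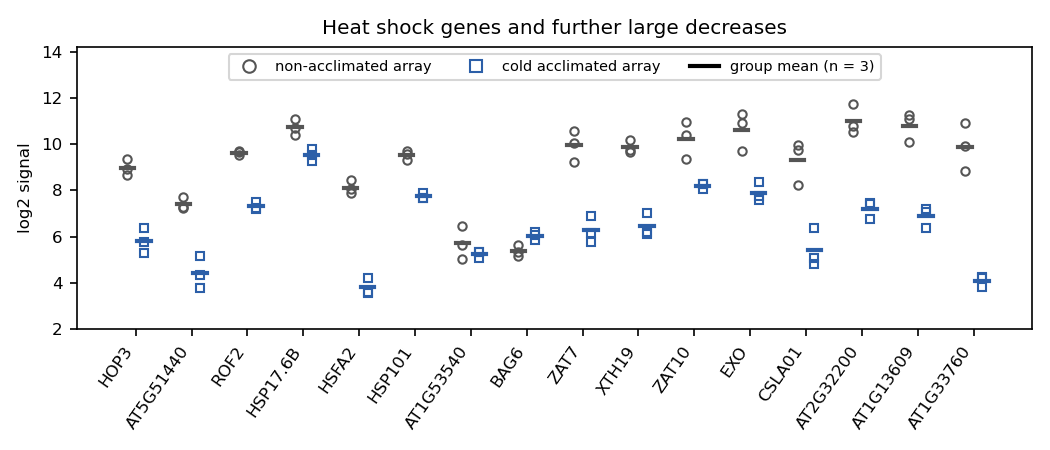
Log2 signal of each array for 8 genes of the heat shock list (HOP3 to BAG6) and 8 further genes with lower signal in the cold, with circles for NA arrays, squares for CA arrays and bars for the mean of 3. AT1G53540 overlaps between groups and BAG6 lies higher in CA, and for the other 14 genes every CA array lies below every NA array.

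Cell wall genes of the XTH family, which cut and rejoin xyloglucan, were called in both directions. Of 7 members in the platform table, 1 was higher (background 3.59%) and 1 lower (background 4.54%), with a median of -0.42. XTH20 was at 7.05, 6.25 and 5.40 in the CA arrays and 2.56, 2.81 and 2.81 in the NA arrays, a change of 3.50 ± 0.48 (adjusted p = 4.74e-05). Its NA signals lay within the range of the 4127 dimmest genes (up to 4.37), so the size of the change is uncertain, and the gene was not tested when the dimmest probe sets were left out. XTH19 was at 6.10, 7.03 and 6.21 in the CA arrays and 9.64, 10.19 and 9.73 in the NA arrays, a change of -3.41 ± 0.59 (adjusted p = 0.000366). XTH18, next to XTH19 on the chromosome, a close copy of it and chosen after its values were seen, was at 6.27, 7.05 and 6.25 in the CA arrays and 7.01, 10.86 and 10.64 in the NA arrays. Its CA arrays were level with NA replicate 1 and far below the other NA arrays, and the change of -2.98 ± 1.23 missed the test (adjusted p = 0.0811). Without NA replicate 1 the list had 2 lower members. XTH27 and XTH32 changed by -0.42 ± 0.18 and -0.25 ± 0.13. None of the 4 listed expansins of the platform table, which loosen walls, was called in limma (0 had an unadjusted p under 0.05), and EXPA15 and EXPA11, the latter named from the paper's table, changed by 0.69 ± 0.35 and 0.05 ± 0.22. Of all 13 alpha expansins named in that source 1 was higher, EXPA9, which was picked after its values were seen, at 9.50, 9.45 and 9.37 in the CA arrays and 9.0, 8.27 and 7.94 in the NA arrays, a change of 1.04 ± 0.27 (adjusted p = 0.00731).

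Hormone genes were mostly measured through names from the paper's table. Of the AUX/IAA repressors of auxin response in the platform table, 1 of 7 was higher (background 3.59%) and 1 lower (background 4.54%). IAA29 was at 7.43, 7.38 and 6.98 in the CA arrays and 5.59, 4.63 and 5.74 in the NA arrays, a change of 1.95 ± 0.64 (adjusted p = 0.0296), and IAA33 changed by -1.12 ± 0.34 (adjusted p = 0.0216). Both calls were fragile: that of IAA29 was lost without NA replicate 2 (adjusted p = 0.119) or CA replicate 1 (0.0805), 2 (0.0778) or 3 (0.0508), and that of IAA33 without NA replicate 1 (0.0584) or 3 (0.0605) or CA replicate 1 (0.0862) or 2 (0.0692). IAA17, named only from the paper's table, was lower, with a change of -1.25 ± 0.18, and IAA18 of the platform table changed by -0.57 ± 0.19. IAA5 and GH3.3, both induced by auxin, changed by 0.03 ± 0.27 and -0.05 ± 0.39 and did not pass the test (adjusted p = 0.955 and adjusted p = 0.951).

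Of gibberellin genes, none of the 3 in the platform table was called in limma (1 had an unadjusted p under 0.05), and the receptor GID1A changed by 0.33 ± 0.14. Of 7 named from the paper's table, 3 were lower. GA3OX2, which makes active gibberellin, was at 6.75, 6.52 and 6.82 in the CA arrays and 8.74, 8.37 and 8.32 in the NA arrays, a change of -1.78 ± 0.22, and GA2OX2, which inactivates it, at 5.08, 4.65 and 5.42 in the CA arrays and 6.92, 7.45 and 7.25 in the NA arrays, a change of -2.15 ± 0.43. GASA6, of a gibberellin-responsive peptide family, changed by -1.56 ± 0.41. Genes of synthesis and of breakdown were thus both lower. The growth repressors GAI and RGL1 (DELLA proteins) changed by -0.76 ± 0.19 and -0.90 ± 0.18, past the adjusted p but short of the fold threshold.

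Abscisic acid signalling was seen through 3 genes named from the paper's table. ABF1, a bZIP factor of this pathway, was at 10.25, 10.20 and 10.07 in the CA arrays and 8.06, 7.53 and 7.62 in the NA arrays, a change of 2.44 ± 0.17 (adjusted p = 3.88e-08). Its relative ABF2 changed by -1.01 ± 0.15 and the phosphatase HAB1, which shuts the pathway off, by -1.01 ± 0.19. Both sat on the fold threshold: ABF2 fell short of it without NA replicate 1 (-0.96) or 2 (-0.99) or CA replicate 3 (-0.99), and HAB1 without NA replicate 1 (-0.97) or 3 (-0.96) or CA replicate 2 (-0.88). With arrays centred on their median both fell short too (-0.98 and -0.97).

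Defence genes moved in both directions. PR1 and PR5, classic markers of salicylate responses, were higher. PR1 was at 9.40, 8.52 and 9.50 in the CA arrays and 6.98, 6.75 and 7.24 in the NA arrays, a change of 2.15 ± 0.36, and PR5 at 12.23, 12.12 and 12.09 in the CA arrays and 10.96, 10.85 and 10.74 in the NA arrays, a change of 1.3 ± 0.17. WRKY33, a transcription factor that activates camalexin genes, was lower, at 9.41, 9.32 and 9.59 in the CA arrays and 10.94, 10.79 and 11.48 in the NA arrays, a change of -1.63 ± 0.43, and NIMIN1 changed by 0.48 ± 0.32 (adjusted p = 0.306). Of the jasmonate genes, LOX4, a lipoxygenase of jasmonate synthesis, was at 7.82, 7.76 and 8.11 in the CA arrays and 9.30, 10.27 and 10.53 in the NA arrays, a change of -2.13 ± 0.51, and JAZ5, a repressor that jasmonate induces, at 7.06, 7.08 and 7.45 in the CA arrays and 8.89, 8.69 and 9.59 in the NA arrays, a change of -1.86 ± 0.47. LOX3 and OPR3, of the same synthesis route, changed by -0.72 ± 0.31 (adjusted p = 0.0973) and -0.97 ± 0.24, and LOX1, a lipoxygenase of another class, was lower, with a change of -1.44 ± 0.16. These genes carry names from the paper's table, so their counts are not read against the background.

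Genes known to follow sugar status or low oxygen gave no common direction. EXO, a brassinosteroid-induced gene of leaf growth on the list of sugar-repressed genes, was at 7.75, 8.35 and 7.60 in the CA arrays and 9.68, 10.92 and 11.28 in the NA arrays, a change of -2.73 ± 0.70 (adjusted p = 0.00699), whereas TPS10, related to trehalose phosphate synthases, was higher by 1.52 ± 0.36 and TPS11 and AKINBETA1 changed by 0.61 ± 0.46 and -0.24 ± 0.28. ADH1, alcohol dehydrogenase of fermentation, was higher, at 10.27, 10.07 and 10.44 in the CA arrays and 8.91, 8.91 and 8.06 in the NA arrays, a change of 1.63 ± 0.41, and HRA1, a repressor within the hypoxia response, was lower, with a change of -1.07 ± 0.31, a call lost without NA replicate 2 (adjusted p = 0.0717) or CA replicate 2 (0.0785). Both glucosinolate genes of the platform table had negative changes, UGT74B1 of -0.69 ± 0.16 and AT2G31790 of -0.50 ± 0.15, past the adjusted p and short of the fold threshold.

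Of further genes the paper names, FBH3, a bHLH activator of the photoperiod pathway, was lower, at 8.18, 7.77 and 8.23 in the CA arrays and 10.33, 9.98 and 10.07 in the NA arrays, a change of -2.07 ± 0.23 (adjusted p = 6.16e-06), while FT, the flowering signal itself, was at 8.71, 8.41 and 9.05 in the CA arrays and 8.73, 8.55 and 9.06 in the NA arrays, a change of -0.06 ± 0.27 (adjusted p = 0.906). WLIM2a, an actin-binding LIM protein, was higher by 1.46 ± 0.13. ILL6, which cleaves hormone conjugates, changed by -0.94 ± 0.31 and was short of the fold threshold. SQE2, BAS1 and ACO1, of sterol, brassinosteroid and ethylene metabolism, changed by 0.26 ± 0.22, -0.84 ± 0.39 and -0.85 ± 0.38 and did not pass the test (adjusted p = 0.442, adjusted p = 0.12 and adjusted p = 0.106).

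The place of CA plants within the whole series was counted among the called genes alone. In 289 of the 592 higher genes all 3 CA arrays exceeded all other 18 arrays, and in 330 of the 749 lower genes they lay below all 18. The reverse, NA arrays alone at the far end of the series, held for 61 of the higher and 17 of the lower genes. The same counts over all genes were not worked out, and the same CA and NA arrays enter both statements and each call. These counts are therefore a description.

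Set beside the means of the deacclimated plants, the changed genes followed several courses. LTI30 had means of 5.66 in NA, 12.42 in CA, 9.59 at 2 h and 6.63 at 24 h after return to the warm, and GOLS3 means of 6.10, 11.04, 6.73 and 5.73. COR27 was at 5.11 in NA and 9.73 in CA, 5.06 at 2 h, 10.22 at 12 h and 5.66 at 24 h, so the CA mean was not the highest of the series for this gene. AT1G56300 went from 6.20 in NA and 9.93 in CA to 12.35 at 6 h and 5.97 at 24 h. HSFA2 was at 8.11 in NA, 3.80 in CA and 10.11 at 2 h. AT1G33760 stayed near its CA mean of 4.1 up to 12 h (3.68) and stood at 6.99 at 24 h, against 9.88 in NA.

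**Figure D5:**
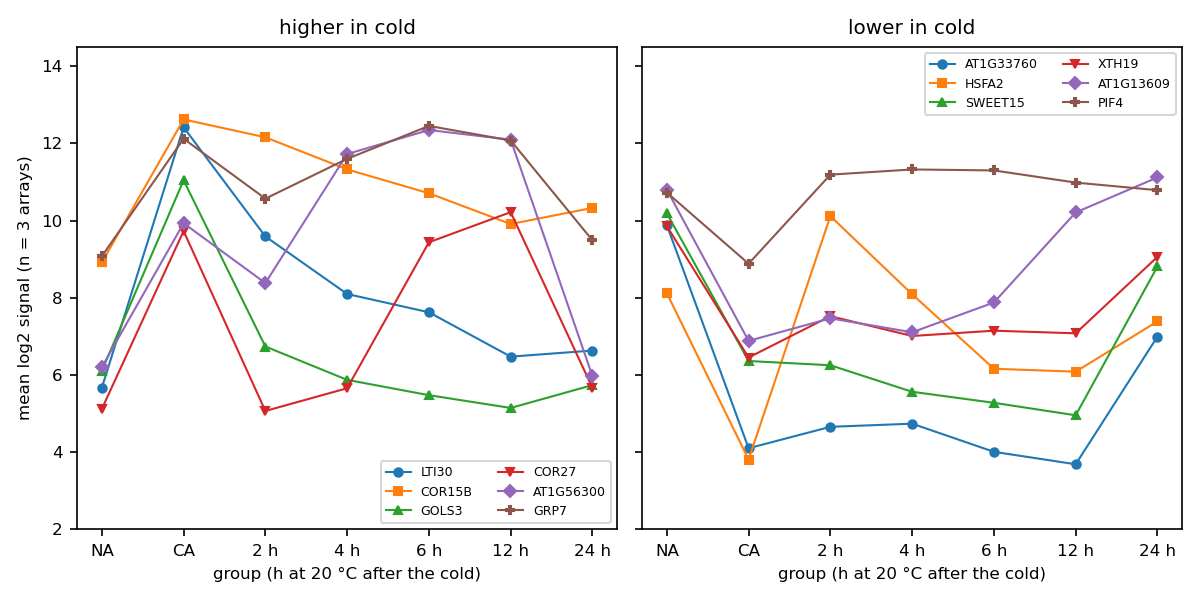
Mean log2 signal (vertical axis, n = 3 arrays per group) in NA and CA plants and at 2, 4, 6, 12 and 24 h of deacclimation for 6 genes that were higher and 6 that were lower in the cold, with lines joining the groups of a gene. LTI30 and GOLS3 peak in CA, COR27 and AT1G56300 are high again at 6 and 12 h, and HSFA2 has its lowest mean, 3.80, in CA.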

How the data were processed

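Total RNA was hybridised to Affymetrix Arabidopsis Gene 1.0 ST arrays, and the deposited values are log2 signals per probe set that the authors made with RMA (background correction, quantile normalization and summary of the probes). They were used as deposited. The first 7079 probe sets, which the platform table does not list, were set apart, leaving 31329. The platform table gives 1 gene for 16722 of these and several for 759, and the paper's table of called transcripts, of which 1997 entries were in hand, names 682 more, while 13166 stay unnamed. The 2 sources give the same locus for 926 of 927 probe sets that both name. Loci were matched to symbols of RefSeq (TAIR10.1). No genome build of the array was at hand, so no coordinates are given. A gene with several probe sets is represented by the one with the highest mean over all arrays.

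Differences were tested with limma 3.58.1 in R 4.3.3 in 1 fit of all 21 arrays (14 residual and 2.69 prior degrees of freedom). Simulated data over 31329 probe sets used the deviations of all 21 arrays from their group means, shuffled between arrays. In them 85% of 100 planted changes of 1.5 and 99% of 100 of 3 were recovered. The shuffling does not keep the wider spread of the NA arrays, so these shares need not hold for CA against NA. With 3 arrays per group the number of arrays limits the precision. Named genes are the 15 largest increases and decreases without overlap of arrays, up to 6 called members per list in the commoner direction, 3 in the other and 2 that passed neither, and genes the paper names. KIN2, COR47, GI, XTH18, EXPA9 and the genes of the closing section are outside this rule and were picked once their values were known. All members and lists were chosen with earlier results of these data known. Equal replicate numbers pair CA with NA arrays: their deviations from the group means correlated at 0.111 to 0.175, against -0.109 to -0.039 for unequal numbers. Alternatives were other sets of probe sets and arrays, scalings, thresholds and priors, a replicate block and leaving out each array.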

Additional observations from a re-analysis of the deposited data

Results flagged for a closer look

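The first 7079 probe sets of the deposited values have no gene name and entered no comparison in the report. When all probe sets were fitted together, 629 of these were higher and 75 lower in the cold (9.94% called), with a median change of 0.42 on the log2 scale. Their median signal over all arrays was 5.91, against 8.19 for the analysed probe sets. What they measure is unknown here, and a cause was not tested. With 3 arrays per group no array was tested for standing apart from its own group.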

How the results depend on the processing

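The counts of 1139 higher and 1335 lower probe sets moved by over 1.5 times in 4 of the alternatives. In 2 of them the number of probe sets tested differed as well. The whole table of 38408 probe sets gave 1752 higher. Tests of the 16722 single-gene probe sets alone gave 596 higher and 759 lower, all of them also called among the 31329. No fold threshold gave 4900 higher and 4042 lower, and a test against the 2-fold threshold itself (treat) 162 and 186. With each array left out in turn, 1044 to 1251 were higher and 1177 to 1503 lower. The higher probe sets made up 46.04% of the calls, and a majority with the whole table (55.85%), with arrays centred on their median (50.34%) and with no fold threshold (54.80%), so which direction was commoner depends on these settings. With the replicate number as a block, 1150 were higher and 1384 lower, and the block changed no call of the 147 named genes.

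Of the 98 named genes that were called, 56 lost the call in some alternative, and treat ended all 56 of these calls. In the alternatives other than treat that tested them, 89 of the 98 kept the call. Changes near 0 in genes without a call turned sign in some settings. Cyclic loess gave -0.0058 for CCA1 and -0.0196 for EXPA11, and median centring 0.0178 for LHCB1.5 and 0.0047 for EPR1. With single arrays left out, EXPA7 lay between -0.0559 and 0.342, EXPA18 lay between -0.0761 and 0.323, EXPA11 lay between -0.0167 and 0.0955, IAA5 lay between -0.173 and 0.32, LHCB1.5 lay between -0.0698 and 0.0435, EPR1 lay between -0.118 and 0.0583, GH3.3 lay between -0.175 and 0.184, FT lay between -0.221 and 0.0965 and ADS1 lay between -0.497 and 0.144. The direction of these genes is not settled. Further limits are the 3 arrays per group, the unequal spread of CA and NA arrays and the low share of calls at low signal. The search for promoter motifs was not run.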

Other observations

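The genes in this part were chosen after their values were seen and have no test beyond the limma fit. Of 9 genes of iron supply picked by hand, 2 were lower and 1 was higher in the cold. All but PYE and BHLH101 carry names from the paper's table, so these counts are not to be read against the background. FRO3, a ferric reductase, was at 7.17, 7.37 and 7.53 in the CA arrays and 9.86, 10.26 and 9.95 in the NA arrays, a change of -2.66 ± 0.24. PYE, a bHLH factor of the iron deficiency response, was at 7.39, 7.15 and 7.18 against 9.74, 9.48 and 8.87, a change of -2.13 ± 0.19. In both the groups are free of overlap. A further 3 genes had negative changes short of the fold threshold, with adjusted p-values under 0.05: NAS4, which makes the metal chelator nicotianamine (-0.95 ± 0.27), BHLH101, another bHLH factor (-0.80 ± 0.23), and the transporter IRT3 (-0.75 ± 0.22). The vacuolar iron transporter-like gene AT1G76800 was higher, by 1.2 ± 0.36. FRO2 and FRU, which take up iron or control its uptake in roots, changed by -0.36 ± 0.41 and -0.38 ± 0.31 and did not pass the test, nor did AT1G21140, at -0.02 ± 0.37.

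Families grouped by RefSeq symbol gave further values, to be set against 3.59% higher and 4.54% lower over all genes of the platform table. Of 10 plant U-box ubiquitin ligases in the platform table none was higher and 4 were lower, PUB22, PUB23, PUB25 and PUB26, by changes from -1.54 to -1.03, with adjusted p of 0.0452 and 0.0482 for PUB22 and PUB23. SWEET13, a sucrose carrier, was higher by 2.54 ± 0.45 and with it 2 of 16 SWEET genes were higher and 2 lower. Of 24 beta-glucosidases 3 were higher and 3 lower, among the latter PYK10, the enzyme of the endoplasmic reticulum bodies, at 8.93, 8.92 and 8.20 in the CA arrays against 10.40, 10.81 and 10.87 in the NA arrays. The defensin-like gene PDF2.1 was higher by 3.3 ± 0.40 and was the only called member of 67 LCR genes. PORB, which makes chlorophyllide in the light, was at 12.79, 12.67 and 12.66 in the CA arrays and 11.09, 10.92 and 10.82 in the NA arrays, a change of 1.76 ± 0.12.

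Of 11101 pairs of neighbouring protein-coding genes that were both measured, 149 had both genes called, 31 with both higher, 80 with both lower and 38 in opposite directions. The pairs were drawn from all 17142 genes of either source, of which 728 were higher and 909 lower. They thus include genes named only from the paper's table of called transcripts. Besides COR15A with COR15B and KIN1 with KIN2, UGT78D3 and its neighbour AT5G17040 were both higher, by 1.79 and 1.99, and AT1G73325 and DR4 were both lower, with changes of -3.11 and -3.10. Neighbours are often close copies, so probes may share signal. How many such pairs the background shares alone would give was not worked out, so the counts are a description.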
